A study of Homo sapiens with 8 samples.

Results

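Control MDA-LM2 cells were followed through 18 h in alpha-amanitin, the part of this study that shows how transcript levels shift under a transcription block when TARBP2 has not been targeted. The comparison used 4 of the 8 arrays in the series, chosen by their titles: 2 arrays of control cells at 0 h and 2 of control cells at 18 h. Of 47321 probes on each array, 17367 (36.7%) were kept, because their detection p-value was under 0.01 in both arrays of at least 1 of these times. MDA-LM2 cells descend from MDA-MB-231, a triple-negative breast cancer line, and were selected for spread to the lung, and RNA was measured on single-colour Illumina BeadChips. The control groups carried the names siControl-1 and siControl-2, were transfected with Lipofectamine 48 h before the start, and received 10 µM alpha-amanitin for 18 h or were taken untreated at 0 h. The series text calls the comparison cells mock-transfected, so whether they received an siRNA is not settled. The knock-down groups, 2 arrays at each time, received 1 of 2 TARBP2 siRNAs, and those taken at 18 h received the same drug. All 8 samples were transfected. Nothing says that the control arrays came from separate cultures, and the p-values below rest on the spread between arrays that may differ only technically.

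Alpha-amanitin binds RNA polymerase II and stops it from moving along the template, so that messenger RNA is no longer replaced. What is left of a transcript after a fixed time then depends mainly on how fast it is degraded. Messages of immediate-early transcription factors, cytokines and many cell cycle regulators are known to be short-lived, whereas those of ribosomal proteins and metabolic enzymes are known to be long-lived. RNA polymerase I and the mitochondrial polymerase are insensitive to the drug and RNA polymerase III is less sensitive, so their transcripts can go on being made. TARBP2 binds double-stranded RNA and is a partner of Dicer. No file used here names the gene of a probe, so the probes below carry their identifiers only. The level of TARBP2, the marker genes of the line and the named decay classes could not be read from these arrays.

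The signal at the 75th and 90th percentiles of probes was lower after 18 h, while that at the 99th was higher. The upper quartile of the non-normalized signal was 268.1 and 272.3 at 0 h and 174 and 183.5 at 18 h, and the 90th percentile was 1451.9 and 1479.1 against 930 and 991.4. The groups did not overlap on either measure. At the 99th percentile the order was the opposite, with 13914 and 13991 at 0 h and 15968 and 16681 at 18 h. The median signal, which lies among undetected probes, was 90.3 and 91.5 at 0 h and 87.8 and 91.4 at 18 h, and its groups overlapped. An exact permutation test of 2 arrays against 2 cannot give a two-sided p below 0.333, so none of these differences was tested. Signals are relative to the RNA put on the array, so they do not show whether the number of cells or the RNA per cell changed.

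**Figure D1:**
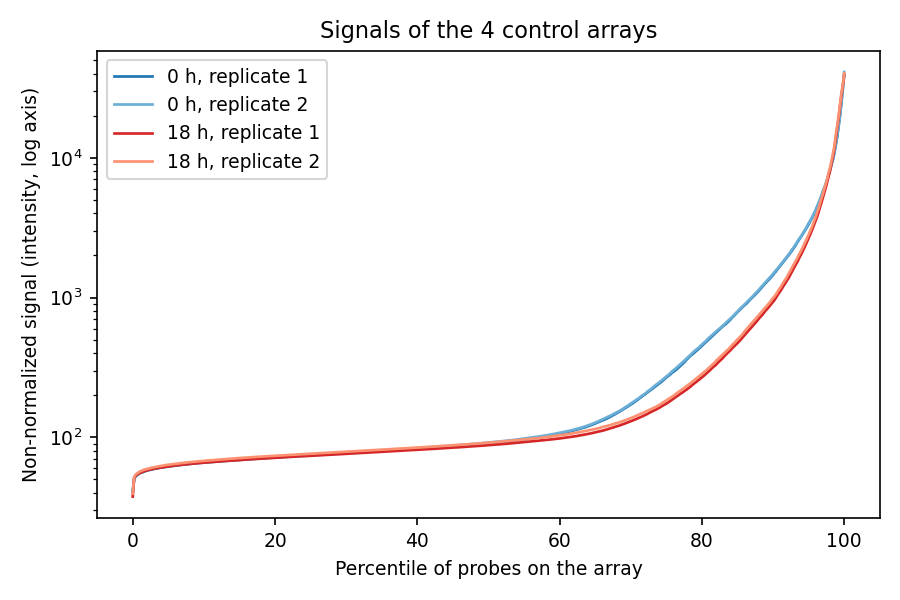
The non-normalized signal (log axis) at each percentile of the 47321 probes in the 4 control arrays, 1 line per array. The 18 h lines lie below the 0 h lines at the 75th percentile (174 and 183.5 against 268.1 and 272.3) and above them at the 99th (15968 and 16681 against 13914 and 13991).

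Signal became concentrated in fewer probes. After background correction, the brightest 1% of probes (473) held 33.0% ± 0.054 of the summed signal at the start and 39.5% ± 0.59 after 18 h (mean ± SD, n = 2 arrays each). The number of probes that together carried 50% of the signal was 1042 and 1046 at 0 h and 710 and 733 at 18 h. The summed signal changed less, from 33403700 and 33812500 at 0 h to 30538700 and 32008100 at 18 h. The brightest 100 probes were largely the same at both times. Of them, 67 were shared between 0 h and 18 h, against 87 between the 2 arrays at 0 h and 80 between those at 18 h.

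More probes dropped out of detection than came into it. Detection was read on each array alone, so it does not depend on normalization between arrays. There were 16788 and 17619 detected probes at 0 h and 16220 and 15541 at 18 h. In all, 14306 probes were detected in all 4 arrays. A further 1601 were detected in both arrays at 0 h and in neither at 18 h, which is 9.67% of the 16564 probes detected in both arrays at 0 h. The reverse was seen for 486 probes, or 3.22% of the 15109 detected in both arrays at 18 h, so that losses outnumbered gains 3.29 to 1. The number gained was 736 without replicate 2 at 0 h and 944 without replicate 2 at 18 h, and at a detection p under 0.001 there were 2431 losses and 218 gains. The remaining 974 kept probes were detected in both arrays of 1 time and in 1 array of the other. The lowest detected signal was 122.7 and 116 in the arrays at 0 h and 110.4 and 122.5 at 18 h, and each of these values also occurred on a probe that was not detected.

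Probes that were lost had mostly been dim. Their median signal at 0 h was 163.7, against 774.1 for the probes detected in all 4 arrays. The gained probes had a median of 136.8 at 18 h. For such probes only a lower bound of the fold can be given, with each undetected array set at the level of the dimmest kept probe that it detected, unless the probe itself read higher. The levels were taken after normalization of the 4 arrays to the same distribution, so the bound holds under that scaling only. These probes were also kept only through the time at which they were detected. By this bound 392 of the 1601 lost probes fell at least 2-fold and 99 at least 4-fold, and the farthest fell at least 21.5-fold. Of the 486 gained probes, 195 rose at least 2-fold and 57 at least 4-fold, up to at least 13.4-fold.

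Without any scaling between arrays, most transcripts had lost signal at 18 h. Among the 14306 probes detected in all 4 arrays, both signals at 18 h lay below both at 0 h for 8660 (60.5%) and above both for 3895 (27.2%), and the groups overlapped for 1751 (12.2%). For a probe without change, full separation of 2 arrays from 2, in either direction, has a probability of 0.333. Limma's test called 79.2% of the 17367 kept probes, but on normalized values and over a larger set of probes. After background correction the median probe of the 14306 kept 75.2% of its signal at 0 h, and the middle 50% of probes lay between 42.9% and 113%. Taken by replicate number, the median was 72.9% and 76.8%. Under 25% of the signal was left for 1459 probes (10.2%), and 25 to 50% for 2940. At the other end 370 probes (2.59%) had more than 200% and 34 more than 400%. These shares are relative to the RNA put on the array, and probes that fell below detection are not among them.

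Relative to the other transcripts, the changes went both ways. After quantile normalization, which gives every array the same distribution, limma called 13747 of 17367 probes (79.2%) at an adjusted p under 0.05. Of these, 7207 (41.5% of the kept probes) were higher and 6540 (37.7%) were lower at 18 h. The middle 90% of log2 changes ran from -1.88 to 1.44, with a median of 0.054. Under this normalization large decreases outnumbered large increases. Over 2-fold, 3093 probes (17.8%) fell and 2471 (14.2%) rose. Over 4-fold, 716 (4.12%) fell and 250 (1.44%) rose, a ratio of 2.86, and over 8-fold 121 fell and 38 rose. Without background correction, which leaves folds of dim probes smaller, 318 fell and 74 rose over 4-fold. Some of these had to differ, since a probe detected at 1 time only passes the detection filter through the time at which it is high. Of the probes over 4-fold, 372 of those that fell and 126 of those that rose were detected in all 4 arrays.

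The split between higher and lower depended on scaling. Relative to quantile normalization, the median log2 change shifted by 0.32 when arrays were scaled to the median of the kept probes, and 64.2% of calls were then higher, against 52.4%. It shifted by -0.48 when they were scaled to the median of all probes (29.3% higher), by -0.17 under cyclic loess (44.1% higher) and by -0.54 without normalization (26.3% higher). The counts of large changes depended on it too. Over 4-fold, 463 probes fell and 410 rose when scaled to the median of the kept probes (a ratio of 1.13), 849 and 197 under cyclic loess, 1715 and 95 when scaled to the median of all probes, and 1842 and 88 without normalization (a ratio of 20.9). Called in the same direction under all 5 of these scalings were 5171 probes that fell and 3389 that rose, which is 79.1% and 47.0% of the main calls. Over 2-fold under all 5 there were 2232 that fell and 572 that rose, and over 4-fold 463 and 88, which is 64.7% and 35.2% of the main counts over 4-fold. A further 2206 probes were called higher under 1 scaling and lower under another. For those no direction is given.

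**Figure D2:**
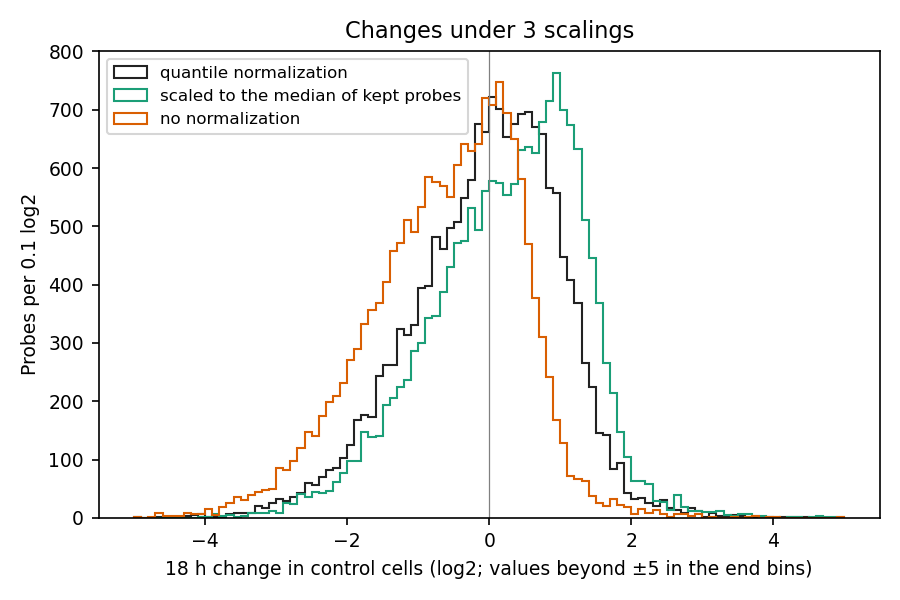
Number of probes per 0.1 log2 units of 18 h change in control cells under quantile normalization, scaling to the median of the kept probes, and no normalization. The median is 0.054, 0.37 and -0.49 in this order.

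The change was much larger than the spread between arrays. The log2 difference between the 2 arrays of a time had an SD over probes of 0.15 at 0 h and 0.22 at 18 h, while the 18 h change itself had an SD of 1.05. The median standard error of a change was 0.086, and the smallest absolute change called was 0.19. Arrays of the same time correlated over probes at r = 0.998 (0 h) and 0.996 (18 h), and arrays of different times at 0.896 to 0.897. Taken from the arrays numbered 1 and from those numbered 2, which share no array, the changes correlated at r = 0.968 (Spearman 0.963) over 17367 probes. These are descriptions, since probes are not independent replicates. Of the 5660 probes over 2-fold in the first pair, 99.9% had the same sign in the second. Of the 6459 probes within 0.5 log2 units in the first pair, 81.9% had.

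**Figure D3:**
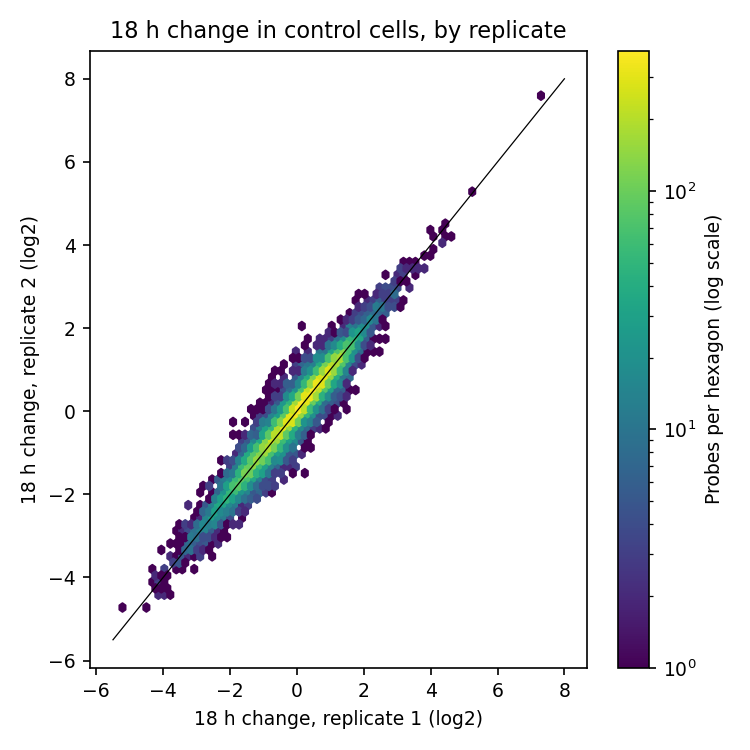
The 18 h change (log2) in control cells for 17367 probes, computed from the arrays numbered 1 (horizontal) and 2 (vertical), with shade for the number of probes on a log scale and a line of equality. Probes lie along the line (r = 0.968), and the farthest probe stands at 7.30 and 7.59.

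The largest increase among probes detected in all 4 arrays was that of ILMN_1881909. Its non-normalized signal was 313.6 and 282.4 at 0 h and 32262 and 34220 at 18 h. It lay above the upper quartile of all probes in both arrays at 0 h (268.1 and 272.3) and near the top of the range in both at 18 h. Ranked by background-corrected signal, it moved from place 11355 to place 85 of 47321. The increase was 174-fold after normalization (log2 change 7.45 ± 0.10, SE; limma adjusted p = 3.38e-05), and between 120-fold and 254-fold over all scalings, without background correction and in the authors' values. It was the only probe of the brightest 100 at 18 h that had been called higher by over 2-fold.

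The next largest increase, on ILMN_1739423, began near the detection threshold. Its signal was 139.1 and 122.5 at 0 h, with detection p-values of 0.00519 and 0.00779, and 2269 and 2098 at 18 h. The groups were far apart, but the size of the fold rests on the dim values at 0 h. It was 39.6-fold after normalization (log2 change 5.31 ± 0.14, SE; limma adjusted p = 3.38e-05) and between 20.4-fold, without background correction, and 54.8-fold over the same settings. The third largest increase among probes detected in all 4 arrays was 20.1-fold.

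Among probes detected in all 4 arrays, the largest decreases were those of ILMN_2188264 and ILMN_3211935. ILMN_2188264 gave signals of 12069 and 12692 at 0 h and 569.7 and 544.4 at 18 h, and moved from place 564 to place 6602. It fell 19.7-fold (log2 change -4.30 ± 0.084, SE; limma adjusted p = 3.38e-05), and 3.90% of its background-corrected signal was left. ILMN_3211935 gave 8085 and 8450 at 0 h and 358.9 and 399.7 at 18 h. It fell 18.7-fold (log2 change -4.22 ± 0.075, SE; limma adjusted p = 3.38e-05), and 3.69% of its signal was left. Both stayed well above the detection threshold at 18 h. Over all scalings, without background correction and in the authors' values they fell between 13.7-fold and 24.8-fold, and between 14.2-fold and 25.8-fold. The third largest decrease among probes detected in all 4 arrays was 18.2-fold. This condition matters for the order. Of the 19 called probes with a log2 change under -4, 8 were detected in all 4 arrays, and the others were below detection in at least 1 array.

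**Figure D4:**
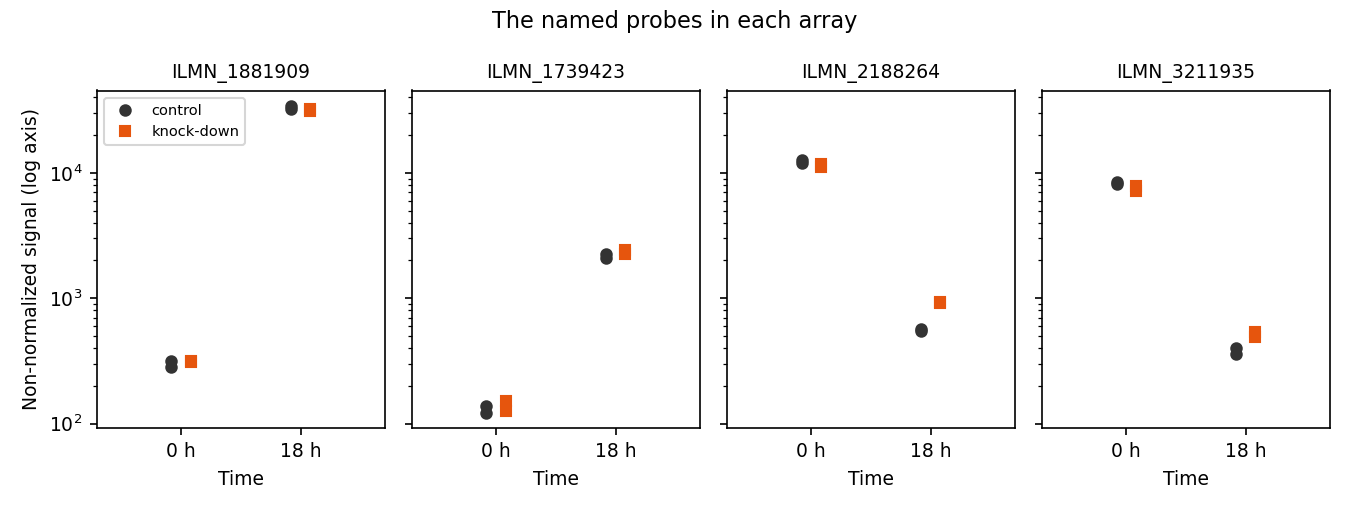
Non-normalized signal (log axis) of the 4 named probes at 0 h and 18 h, with 1 circle per control array and 1 square per knock-down array. ILMN_1881909 is at 282.4 to 313.6 in the arrays at 0 h and at 30854 to 34220 in those at 18 h, and ILMN_2188264 is lower at 18 h in control (569.7 and 544.4) than in knock-down cells (924 and 908).

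How often large changes were measured differed with the starting level of signal. To keep the starting level apart from the change, probes were ordered by their signal in the knock-down arrays at 0 h, which are not used in the control change. The 16283 probes detected in both of those arrays were divided into 5 equal parts, with no condition on the control arrays. Decreases over 4-fold were found for 0.614% of the dimmest part, 5.99%, 6.42% and 4.73% of the next ones and 4.21% of the brightest part. Increases over 4-fold went the other way, with 2.09% in the dimmest part, 1.50% and 0.307% in the following ones, and 0.0614% in each of the last 2. The dimmest part began at background-corrected signals of 44.8 to 128, where a 4-fold fall comes close to background. The brightest part ran from 2199 to 39106, the latter close to the highest signal of the arrays. The fourth part ran from 792 to 2199. Increases over 4-fold were 2 probes in the fourth part and 2 in the brightest. Whether the range of the arrays limits such changes was not tested. Detection at 18 h was lost for 25.9% of the dimmest part, 11.2% of the next and 0% of the brightest.

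The spread of changes was narrowest among the brightest probes. The distance from the 25th to the 75th percentile was 0.91 log2 units in the brightest part and 1.36 to 1.60 in the others. The median change was between -0.054 and 0.098 in all 5 parts after quantile normalization. Without normalization it was -0.096 in the brightest part, -0.46 in the dimmest and between -0.66 and -0.82 in the 3 parts between them. On the unscaled data the median was thus nearest to 0 among the brightest probes. Array error was also smallest there. The median absolute log2 difference between the 2 arrays at 18 h was 0.060 in the brightest part and 0.20 in the dimmest.

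**Figure D5:**
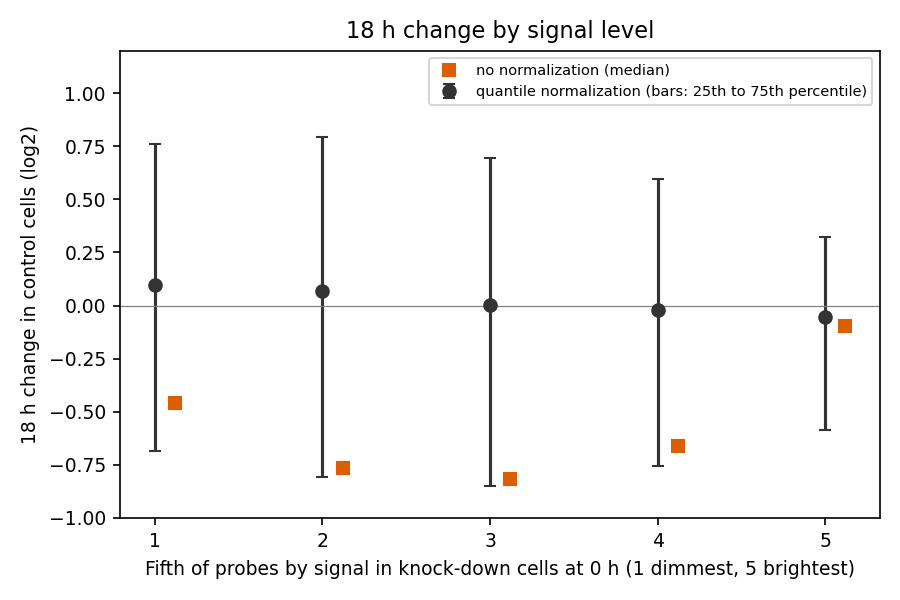
The 18 h change in control cells (log2) in 5 equal parts of 16283 probes, ordered by their signal in knock-down cells at 0 h. Circles and bars give the median and the 25th to 75th percentile after quantile normalization, and squares the median without normalization, which is lowest in the third part (-0.82) and nearest to 0 in the brightest (-0.096).

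Few of the very brightest probes were called. Of the 100 brightest probes at 0 h, 9 were called lower and 1 higher by limma, and 0 of them fell over 4-fold. Of the 100 brightest at 18 h, 0 were called lower and 15 higher. Among all kept probes 79.2% were called. Which probes are brightest was read from the same arrays, so no test is attached to these counts. The highest signal on an array was between 39029 and 41165 in all 4 control arrays. Whether the scanner range limits the changes of these probes was not tested.

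Cells with TARBP2 targeted lost less signal over the same 18 h. The upper quartile of their non-normalized signal was 251 and 266.1 at 0 h and 221.6 and 220 at 18 h, so it lay above both control arrays at 18 h. Over the 14824 probes detected in all 4 knock-down arrays, the median share of signal left was 98.3% and 92.3% for the 2 siRNAs, against 72.9% and 76.8% for the control numbers. In knock-down cells 1069 probes lost detection and 889 gained it, against 1601 and 486 in control cells. Of the probes lost, 843 were lost in both arms, which is 52.7% of the control list and 78.9% of the knock-down list. Of the probes gained, 332 were shared, 68.3% of the control list and 37.3% of the knock-down list. There were 309 probes lost in control cells but detected in both knock-down arrays at 18 h, and 35 of the opposite kind. With 2 arrays a group these array-wide differences were not tested.

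After normalization, the 18 h change over 18078 probes had an SD of 1.05 in each of the 2 control pairs of arrays, against 1.02 and 1.03 with the 2 TARBP2 siRNAs. Probes were also sorted by 1 pair and read in the pairs that had no part in the sorting. The 740 probes that fell over 4-fold in the control arrays numbered 1 had a median log2 change of -2.44 in the other control pair, and of -2.28 and -2.29 with the siRNAs. The 264 that rose over 4-fold had medians of 2.44 in the other control pair and of 2.29 and 2.27 with the siRNAs. Sorting on an arm favours probes that change more in that arm. When they were sorted by the first siRNA instead, a step added after seeing the data, the 657 that fell over 4-fold had medians of -2.43 with the second siRNA and -2.41 and -2.44 in the control pairs. The 288 that rose had medians of 2.31 with the second siRNA and 2.27 and 2.34 in the control pairs. A narrower range in knock-down cells was thus seen with only 1 of the 2 ways of sorting, and it was not tested.

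Probe by probe, limma's interaction test over all 8 arrays called 2325 of 18078 probes (12.9%), of which 1283 (7.10%) were higher and 1042 (5.76%) lower in knock-down cells, relative to other transcripts. Of these, 139 and 76 differed by over 2-fold. This count fell whenever 1 array was left out. Such a fit has a lone array in 1 group and fewer residual degrees of freedom. How much of the fall comes from that and how much from the array itself was not tested. Leaving out a control array of 0 h lowered it to 184 (replicate 1) or 471 (replicate 2). Leaving out a knock-down array of 0 h gave 739 (replicate 1) or 622 (replicate 2), and one of 18 h gave 620 or 519. Leaving out a control array of 18 h kept it at 1796 or 1639. A replicate block gave 800. When arrays were scaled to the median of the kept probes, 4340 probes were called and 27.7% of them were higher, against 55.2%, and the median difference was -0.11 rather than 0.010.

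None of the 4 named probes passed that test. ILMN_2188264 came closest. Its signal in knock-down cells was 11837 and 11172 at 0 h and 924 and 908 at 18 h, so both arrays at 18 h lay above both control arrays. Its log2 change was 0.44 higher than in control cells (95% interval 0.15 to 0.73; limma adjusted p = 0.0584). For ILMN_3211935 the difference was 0.24 (interval -0.034 to 0.50; limma adjusted p = 0.204). For the rising probes it was -0.17 on ILMN_1881909 (interval -0.48 to 0.15; limma adjusted p = 0.428) and -0.30 on ILMN_1739423 (interval -0.81 to 0.20; limma adjusted p = 0.368). All 4 probes were picked for their large change in the control arrays, which favours a larger change there than in knock-down cells. Each difference went in that direction, and the intervals do not allow for the picking. ILMN_1881909 gave 310.1 and 313.2 at 0 h and 32574 and 30854 at 18 h in knock-down cells, so its increase was present in all 4 pairs of arrays. No array was taken after 18 h without the drug, so its effect and that of the time in culture cannot be told apart.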

How the data were processed

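Total RNA of MDA-LM2 cells was measured on 8 arrays, of which the 4 control arrays make up the main comparison. The authors deposited non-normalized signals on a linear intensity scale and, per the file headers, a detection p-value for each probe and array. They also deposited a second table of intensity values. Within each control array it ranked the probes as the signals did (Spearman 1), and its medians were 85.5, 85.5, 85.6 and 85.5, so it is normalized between arrays, on a linear scale and not centred. The submitters' processing notes list lumi, with neither its step nor its settings. A deposited table of knock-down over control ratios was not used, since it gives no value for control cells alone.

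Signals of the 4 control arrays were background-corrected and quantile-normalized together with neqc (offset 16) of limma 3.58.1, run in R 4.3.3. In this step the level of negative control beads is estimated from the detection columns. A linear model with 1 coefficient per time was fitted to the kept probes, with 2 residual degrees of freedom and 3.02 added by eBayes. Tests were 2-sided, and a probe was called at a p under 0.05 after Benjamini-Hochberg adjustment. The interaction test used all 8 arrays normalized together, and probes detected in both arrays of at least 1 of the 4 groups. Unscaled shares are ratios of background-corrected means. Replicate arrays shared at most 0.330% of signal values, and all were counted. The number of arrays limits the precision. The fits were tested on simulated normalized values in which few probes changed. That test did not include the scaling between arrays.

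The named probes are the 2 largest increases and 2 largest decreases among called probes detected in all 4 control arrays whose times do not overlap. The comparison, the gene lists and the rules were chosen with earlier results of these data known. Scaling to the median of all probes and the count shared by 5 scalings were added after seeing the data. Gene lists, cell type markers and sequences could not be placed on the probes.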

Additional observations from a re-analysis of the deposited data

Results flagged for a closer look

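The 18 h change differed between control and knock-down cells for 2325 of 18078 probes by limma's interaction test, which is why this result is listed for a closer look. No group has enough arrays for a search for outlying arrays. The unscaled share of signal left at 18 h also differed between the arms, with medians of 72.9% and 76.8% in control cells and 98.3% and 92.3% in knock-down cells. Its part in the count was not tested.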

How the results depend on the processing

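Without normalization 3557 probes were called higher and 9977 lower in control cells, and scaled to the median of all probes 4031 were called higher. Counts over 4-fold moved as well. Higher probes numbered 74 without background correction, 89 in the authors' values, 88 without normalization, 95 and 410 when scaled to the median of all probes and of the kept probes, and 126 when only probes detected in all 4 arrays were fitted. Lower probes numbered 318, 322, 1842, 1715, 463 and 372 in the same order. The cause was not tested, except that the last setting fits fewer probes. At a detection p under 0.001, 2431 probes lost and 218 gained detection. Leaving out 1 control array in turn gave 6236 to 7486 called higher, 5781 to 6432 called lower, 231 to 282 over 4-fold higher, 693 to 779 over 4-fold lower, 1708 to 2222 losing and 553 to 944 gaining detection. The number gaining was 736 without replicate 2 at 0 h and 944 without replicate 2 at 18 h. The interaction count was 4340 with scaling to the median of the kept probes and 184 to 1796 with 1 of the 8 arrays left out, where a lone array is assumed to vary like the other groups. With a replicate block, 7108 probes were called higher, 6485 lower and 800 in the interaction. The labels do not say that a number marks a shared culture, and the deviations of same-numbered arrays correlated over probes at r = -0.0054. The 4 named probes kept their direction and their call under every setting. Gene lists and genes with several probes were not run, because probes carry no gene names. Detection limits the dim probes, whose folds are bounds.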
